A study of Mus musculus with 6 samples.

Results

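The transcripts described here encode 10 enzymes that place double bonds in fatty acids or lengthen them. They are the stearoyl-CoA desaturases *Scd1*, *Scd2* and *Scd3*, the front-end desaturases *Fads1*, *Fads2* and *Fads3*, and the elongases *Elovl1*, *Elovl3*, *Elovl5* and *Elovl6*. They were taken by gene symbol from each of the 6 count tables, in which they are 10 of 24421 symbols, and all 10 had enough counts to be among the 12766 genes tested. 3T3-L1 is a mouse fibroblast line, labelled as strain C57BL/6, that becomes adipocyte-like in culture. All cells were differentiated with insulin, a thiazolidinedione, dexamethasone and isobutylmethylxanthine, the last 2 agents being withdrawn after the initial days. On day 7 of differentiation they received 100 pfu/cell of an adenovirus, which carried *LacZ* in the control group (AdLacZ, 3 libraries) or codon-optimized murine *Lmo3* in the other (AdLmo3, 3 libraries). RNA was taken 72 h later, and the 3 libraries of a group are labelled as numbered replicates. The study's methods do not state whether these came from separate infections. The experiment holds a single cell line, every library is from infected cells, and the comparison asks how forced expression of the transcriptional cofactor LMO3 altered RNA levels in mature adipocytes.

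Desaturases and elongases act on fatty acids bound to coenzyme A in the membrane of the endoplasmic reticulum. SCD enzymes introduce a double bond into palmitate, made by fatty acid synthase, and into stearate. They so supply the palmitoleate and oleate that adipocytes store as triglyceride. FADS1 and FADS2 desaturate the dietary essential fatty acids and their products nearer to the carboxyl end, whereas FADS3 acts on sphingoid bases and trans-vaccenic acid. ELOVL enzymes catalyse the condensing step that adds carbon from malonyl-CoA. In fat tissue *Scd1* is a well-known target of insulin, SREBP-1c, LXR and PPARγ.

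The gene counts summed to between 28035639 and 38332335 per library, so that 3 counts, taken as the smallest detectable number, correspond to 0.0768 to 0.111 CPM (counts scaled to a common library size after TMM normalization). *Lmo3* had 0 counts in every library, and as the virus carried a recoded sequence the group labels could not be checked through it. Adipocyte markers were abundant in these cells: their 8 transcripts summed to 19892 to 23075 CPM in AdLacZ and to 26672 to 33099 CPM in AdLmo3, without overlap, and 5 of the 8 passed the test, all higher in AdLmo3. The 8 preadipocyte and fibroblast markers summed to 8322 to 10885 CPM and to 7749 to 10910 CPM, and 0 of the 8 passed. Over all genes tested, 4.28% passed, 2.71% being higher in AdLmo3, and the groups did not overlap for 26.5%. Macrophage markers (5 genes) summed to 2.73 to 4.61 CPM in AdLacZ and 2.11 to 3.51 CPM in AdLmo3. *Ptprc*, *Adgre1* and *Itgam* had no more than 3 counts in any library, *Csf1r* had 14 to 30 and *Cd68* 40 to 163. Endothelial markers (3 genes) summed to 1.32 to 2.00 CPM and 0.777 to 1.24 CPM, without overlap. *Cdh5* and *Kdr* had no more than 5 counts, and *Pecam1* had 16 to 76. Brown and brite markers (4 genes) summed to 40.3 to 44.4 CPM and 42.5 to 46.7 CPM. *Ucp1* had 0 to 2 counts, *Dio2* 2 to 14, *Cidea* 206 to 575 and *Ppargc1a* 1003 to 1271. Of the tested macrophage, endothelial and brown or brite markers, 0 passed. As these are bulk cultures, more cells of a type and more RNA per cell cannot be told apart, and the part of the adipocyte markers in the changes below was not tested.

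In AdLmo3-infected adipocytes *Scd1* RNA rose 2.13-fold and *Fads2* RNA 1.34-fold, whereas *Scd3*, *Fads3* and *Elovl6* fell. These were 5 of the 10 genes at an adjusted p-value under 0.05 (edgeR's quasi-likelihood test, Benjamini-Hochberg adjustment over all genes tested), against 4.28% of all genes tested. Of the 10, 2 were called higher, against 2.71% of all genes, and 3 were called lower, against 1.57%. The groups of libraries did not overlap for 6 of the 10, namely the 5 above and *Elovl5*, while they did not overlap for 26.5% of all genes. Differences of the members went in either direction, 4 being higher and 6 lower, with their median at −0.07 on the log2 scale, where that over all genes tested was 0.00. Each family held estimates of both signs, as the plot of levels by library shows.

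**Figure D1:**
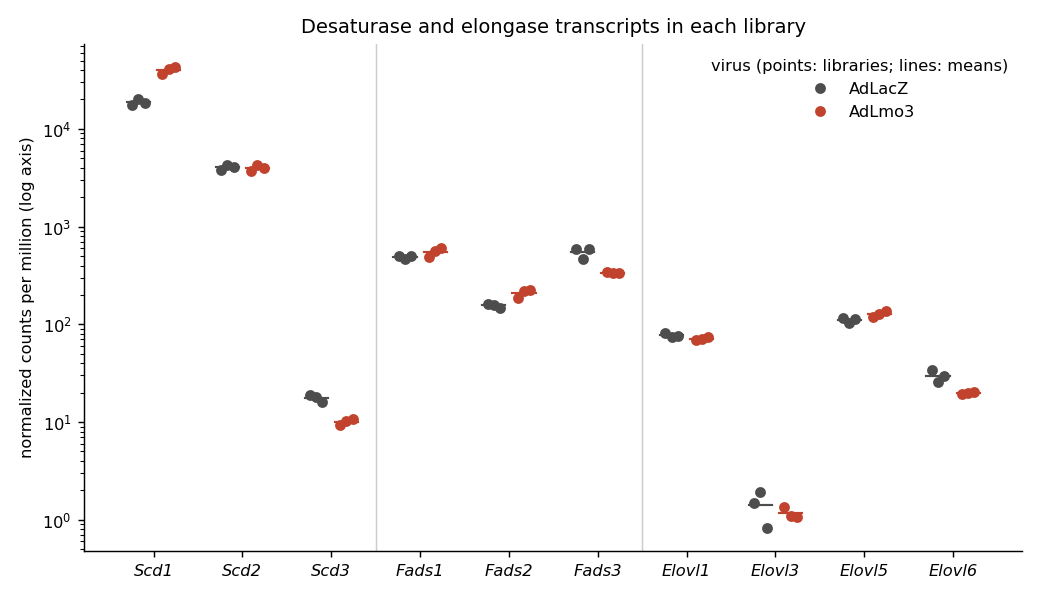
Normalized CPM (log axis) of the 10 genes in each of the 3 AdLacZ (grey) and 3 AdLmo3 (red) libraries, with a line at each group mean. *Scd1* lies between 17775 and 20141 in AdLacZ and between 36112 and 42991 in AdLmo3, and the groups are also apart for *Scd3*, *Fads2*, *Fads3*, *Elovl5* and *Elovl6*.

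*Scd1* encodes the main stearoyl-CoA desaturase of fat and liver, and lies on chr19:44394455-44407879 (minus strand, GRCm38) within a cluster that also holds *Scd2* (chr19:44293674-44306864), *Scd3* (chr19:44203269-44244016) and *Scd4* (chr19:44333092-44346743), all on the plus strand. It had more counts than any other symbol in all 6 libraries. Its level was 17775, 20141 and 18338 CPM in AdLacZ replicates 1, 2 and 3, and 36112, 40840 and 42991 CPM in AdLmo3 replicates 1, 2 and 3. Every AdLmo3 library thus lay above every AdLacZ library. The lowest AdLmo3 library, replicate 1, was also the lowest of its group in summed adipocyte markers. In AdLacZ the reverse held: replicate 2 had the highest *Scd1* and the lowest marker sum (19892 CPM). The mean rose from 18752 ± 1236 to 39981 ± 3519 CPM (SD, n = 3), a log2 fold change of 1.09 (SE 0.115, adjusted p = 0.00352). In raw terms 1.85% to 2.05% of all gene counts in AdLacZ and 3.55% to 4.14% in AdLmo3 came from this single gene.

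*Scd2*, a desaturase of the same reaction that is also expressed in brain and in preadipocytes, showed no such difference. It stood at 3771, 4314 and 4089 CPM in AdLacZ and at 3746, 4248 and 4022 CPM in AdLmo3. The groups covered nearly the same range, and the log2 fold change was −0.02 (95% confidence interval −0.23 to 0.19, adjusted p = 0.938). A rise of the size seen for *Scd1* lies outside this interval.

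*Scd3*, best known from sebaceous glands of the skin, is a minor transcript here, with 550 to 705 counts per AdLacZ library and 291 to 378 per AdLmo3 library. Its level was 19.0, 18.0 and 16.2 CPM in AdLacZ and 9.34, 10.3 and 10.8 CPM in AdLmo3. The AdLmo3 libraries all lay below the AdLacZ libraries, and *Scd3* fell by 0.81 on the log2 scale (SE 0.101, adjusted p = 0.00674), opposite to *Scd1*. *Scd4*, the cardiac member, was near the limit of detection with 12 to 31 counts in AdLacZ and 29 to 59 in AdLmo3, and its log2 difference of 1.12 had a wide interval (0.14 to 2.11, adjusted p = 0.185).

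The 4 Scd genes are close copies, and the reads must tell them apart. The coding sequence of *Scd1* was 90.3% identical to that of *Scd2*, 91.5% to that of *Scd3* and 84.6% to that of *Scd4* (GENCODE transcripts). Over 582 windows of 75 coding bases, the read length used, the median number of bases at which *Scd1* differed was 4 from *Scd2*, 4 from *Scd3* and 6 from *Scd4*. The windows with the fewest and the most differences are printed to show what a read could see. In exon 4, at chr19:44401812-44401886 in *Scd1* (minus strand), the sequence of *Scd1* is shared by *Scd2* and *Scd4*, and *Scd3* (chr19:44235783-44235857) differs at 1 base, in capitals:
Scd1: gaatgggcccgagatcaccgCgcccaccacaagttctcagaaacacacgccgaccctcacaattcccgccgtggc
Scd3: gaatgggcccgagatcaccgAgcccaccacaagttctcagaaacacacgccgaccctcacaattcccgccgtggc
In exon 5, at chr19:44400145-44400219 in *Scd1*, the paralogs differ from it at 12 (*Scd2*), 18 (*Scd3*) and 24 (*Scd4*) bases, marked by capitals in their lines, and the capitals of *Scd1* mark every base at which any of them differs:
Scd1: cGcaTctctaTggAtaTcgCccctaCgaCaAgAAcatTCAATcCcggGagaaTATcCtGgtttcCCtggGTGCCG
Scd2: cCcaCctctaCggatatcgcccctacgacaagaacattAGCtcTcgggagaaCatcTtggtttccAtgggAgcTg
Scd3: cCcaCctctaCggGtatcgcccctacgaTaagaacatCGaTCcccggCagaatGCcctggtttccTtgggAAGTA
Scd4: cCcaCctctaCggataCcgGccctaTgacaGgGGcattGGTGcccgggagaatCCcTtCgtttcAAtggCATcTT
Whole stretches of 75 bases found in another gene made up 3.15% of those of *Scd1*, 1.78% of *Scd2* and 3.20% of *Scd3*, the partners being the other Scd genes and the predicted gene *AC123853.3*. How reads that match several genes were counted is not given in the sources used here. Leaving the shared stretches out of the gene lengths left the direction of each share given below as it was. The counts themselves stayed unchanged in this step, so it cannot show whether reads were given to the wrong copy.

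Within the family, *Scd1* made up a larger part of the RNA in AdLmo3. Shares were taken over the counts per kilobase of exon of *Scd1* to *Scd4* in each library, and so need no scaling between libraries. As the shares of a family make up its whole, they are tied, and a change of a single member moves the others. *Scd1* held 83.9%, 83.8% and 83.3% of the family with AdLacZ and 91.5%, 91.4% and 92.2% with AdLmo3 (83.7 ± 0.354% against 91.7 ± 0.451%, SD, n = 3). *Scd2* held 16.2 ± 0.361% and 8.25 ± 0.451%, and *Scd3* 0.109 ± 0.0121% and 0.0320 ± 0.000491%. None of these 3 shares overlapped between the groups (two-sided exact permutation test, p = 0.1 each, the smallest p that 3 against 3 libraries allow; 0.156 after adjustment over the 14 shares compared). The share of *Scd4* was 0.00321% and 0.00359% (exact permutation p = 0.8). Summed over the 4 genes, the normalized level per kilobase was 4581 ± 299 in AdLacZ and 8909 ± 753 in AdLmo3, a ratio of 1.94 (exact permutation p = 0.1, and 0.3 after adjustment over 3 families).

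**Figure D2:**
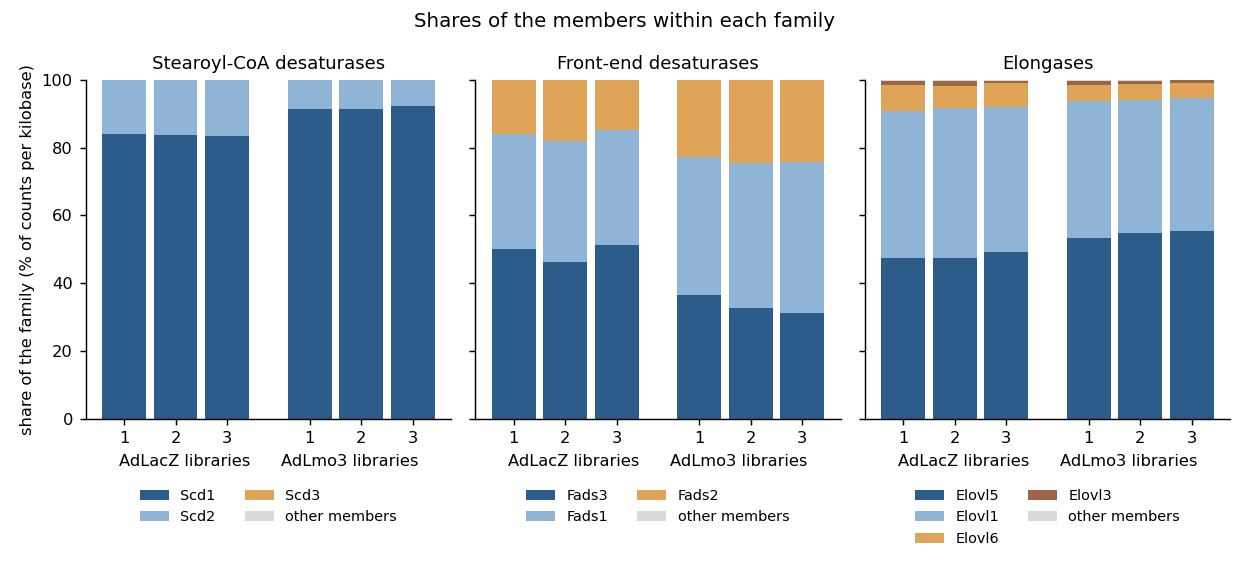
Shares of each gene in the summed counts per kilobase of its family (percent, vertical axis) in the 3 AdLacZ and 3 AdLmo3 libraries. *Scd1* takes 83.7% on average in AdLacZ and 91.7% in AdLmo3. In AdLmo3 the share of *Fads3* is smaller, those of *Fads1* and *Fads2* are larger, and *Elovl6* is the thinner band. *Scd3* and *Scd4* are too small to be seen.

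Of the front-end desaturases, *Fads2* rose and *Fads3* fell, although the genes lie beside each other on chromosome 19 (*Fads3* at chr19:10041569-10060110, plus strand; *Fads2* at chr19:10062765-10101746, minus strand), followed by *Fads1* (chr19:10182888-10196877, plus strand). *Fads2* catalyses the initial and rate-limiting desaturation of linoleic and α-linolenic acid. It stood at 163, 159 and 148 CPM in AdLacZ and at 185, 221 and 224 CPM in AdLmo3. The groups did not overlap, and *Fads2* rose by a log2 fold change of 0.42 (SE 0.0890, adjusted p = 0.0405). This call was close to the threshold: it was lost when any library other than AdLmo3 replicate 1 was left out (adjusted p 0.0789 to 0.171 in these 5 fits, 0.0155 in the other).

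*Fads1* catalyses the later desaturation that gives arachidonic and eicosapentaenoic acid. Its levels of 501, 466 and 499 CPM in AdLacZ and of 485, 567 and 605 CPM in AdLmo3 overlapped, with AdLmo3 replicate 1 inside the AdLacZ range. The log2 difference was 0.18 (95% confidence interval −0.04 to 0.39, adjusted p = 0.332).

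*Fads3*, whose product desaturates sphingoid bases and trans-vaccenic acid, was the most abundant of the 3 in AdLacZ. It stood at 586, 470 and 594 CPM in AdLacZ and at 344, 338 and 333 CPM in AdLmo3. The AdLmo3 libraries were close to each other and all below the lowest AdLacZ library, replicate 2. *Fads3* fell by 0.70 on the log2 scale (SE 0.0977, adjusted p = 0.0102), or 1.63-fold. Without AdLacZ replicate 3 the log2 fold change was −0.64 (adjusted p = 0.0601), and without AdLmo3 replicate 2 it was −0.70 (adjusted p = 0.0553).

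*Fads1*, *Fads2* and *Fads3* share no stretch of 75 bases with another gene, and their coding sequences were 63.0% to 69.8% identical. Counted per kilobase, *Fads3* made up 49.2 ± 2.74% of the family in AdLacZ and 33.4 ± 2.83% in AdLmo3 (SD, n = 3), *Fads1* 34.6 ± 1.21% and 42.8 ± 2.01%, and *Fads2* 16.2 ± 1.63% and 23.8 ± 0.937%. All 3 shares were apart between the groups (exact permutation p = 0.1 each, 0.156 adjusted). In AdLmo3, *Fads1* had taken the place of *Fads3* as the leading member. With lengths of the longest transcript in place of all exons, *Fads1* and *Fads3* came to 41.6% and 43.7% in AdLacZ and to 50.1% and 29.0% in AdLmo3. The total of the family, 294 ± 21.9 and 268 ± 17.7 normalized counts per kilobase, overlapped (exact permutation p = 0.3).

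As *Fads2* and *Fads3* moved apart, the 250 bases before the RefSeq start of each are shown (GRCm38.p6), read in the direction of the gene. These starts, base 10101503 for *Fads2* and 10041548 for *Fads3*, differ from the outermost GENCODE starts behind the gene positions above, so that 243 of the 250 bases of *Fads2* and 0 of those of *Fads3* lie inside the GENCODE gene. They lie at chr19:10101504-10101753 (minus strand) for *Fads2* and at chr19:10041298-10041547 (plus strand) for *Fads3*. Capitals mark matches to any of 5 motifs searched on both strands: TCACCCCAC, a sterol regulatory element; CACGTG, an E-box; CCAAT, the CCAAT box; GGGCGG, the GC box; and AGGTCA, a core motif of nuclear receptors:
Fads2: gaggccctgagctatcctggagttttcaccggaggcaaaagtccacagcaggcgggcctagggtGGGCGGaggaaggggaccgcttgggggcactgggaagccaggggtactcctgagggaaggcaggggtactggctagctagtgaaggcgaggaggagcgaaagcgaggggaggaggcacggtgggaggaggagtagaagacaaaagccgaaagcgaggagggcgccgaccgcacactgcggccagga
Fads3: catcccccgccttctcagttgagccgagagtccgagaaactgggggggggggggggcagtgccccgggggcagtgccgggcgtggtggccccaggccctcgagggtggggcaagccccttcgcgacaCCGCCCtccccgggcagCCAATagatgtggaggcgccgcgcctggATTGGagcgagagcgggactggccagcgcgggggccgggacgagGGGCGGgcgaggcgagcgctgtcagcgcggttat
*Fads2* held a GC box 186 bases before the RefSeq start, inside the GENCODE gene, and *Fads3* held GC boxes at 123 and 34 bases and CCAAT boxes at 106 and 78 bases, none of them overlapping. Among 32851 promoters of the same length the GC box was found in 32.7%, the CCAAT box in 33.9%, AGGTCA in 14.0%, the E-box in 6.02% and the sterol regulatory element in 0.496%, so that a match alone describes the letters and no site of action. Promoters were matched for 6 of the 10 genes, with those of *Elovl6* and *Scd3* given with the elongases below, and those of *Scd1*, *Scd2*, *Fads1* and *Elovl3* were not used here.

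*Elovl6*, which lengthens palmitate to stearate and so makes the substrate of SCD enzymes, fell in AdLmo3. It lies on chr3:129532355-129638495 (plus strand). Its level was 34.4, 25.4 and 29.9 CPM in AdLacZ and 19.6, 19.9 and 20.5 CPM in AdLmo3. The AdLmo3 libraries were tightly grouped below all AdLacZ libraries, which spread more widely. *Elovl6* fell by 0.58 on the log2 scale (SE 0.111, adjusted p = 0.0275). The call held when AdLacZ replicate 2, the lowest control, was left out (adjusted p = 0.0211), and was lost on leaving out any of the other 5 libraries (adjusted p 0.0581 to 0.117). Stretches shared with another gene, chiefly *Gm11295*, made up 2.05% of *Elovl6*, and 34 of its exon bases overlap *Gm35986* on the other strand. Whether counting used strand is not given in the sources used here.

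*Elovl5*, the elongase of polyunsaturated fatty acids (chr9:77917364-77984519, plus strand), was apart between the groups but did not pass the test. It stood at 116, 103 and 114 CPM in AdLacZ and at 118, 128 and 136 CPM in AdLmo3. The gap between the highest control and AdLmo3 replicate 1 was small beside the spread within each group, and the log2 difference was 0.20 (95% confidence interval 0.02 to 0.38, adjusted p = 0.202).

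*Elovl1*, an elongase of saturated very long chains (chr4:118428093-118432953, plus strand), had overlapping levels of 82.0, 73.9 and 76.6 CPM and of 69.0, 71.6 and 74.1 CPM (log2 difference −0.12, 95% confidence interval −0.26 to 0.03, adjusted p = 0.363). Of its exon bases, 53 overlap *Cdc20* on the other strand. *Elovl3*, the cold-induced elongase of brown fat (chr19:46131897-46135694, plus strand), had only 28 to 75 counts in AdLacZ and 29 to 50 in AdLmo3. Its levels of 1.49, 1.92 and 0.826 CPM and of 1.35, 1.09 and 1.07 CPM overlapped, and its interval for the log2 difference, −1.004 to 0.46 around −0.27, allows a change in either direction (adjusted p = 0.686). Its exons overlap *Pitx3* on the other strand by 10 bases.

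Within the elongases, *Elovl5* held 48.0 ± 1.04% of the counts per kilobase in AdLacZ and 54.5 ± 1.11% in AdLmo3, *Elovl1* 43.4 ± 0.728% and 39.6 ± 0.677%, and *Elovl6* 7.07 ± 0.641% and 4.69 ± 0.140% (SD, n = 3). These 3 shares were apart between the groups (exact permutation p = 0.1 each, 0.156 adjusted over 14 shares), whereas that of *Elovl3*, 1.10 ± 0.474% and 0.898 ± 0.166%, overlapped (exact permutation p = 0.7). The summed level of *Elovl1* to *Elovl7* overlapped, at 65.5 ± 3.96 and 66.4 ± 3.46 normalized counts per kilobase (exact permutation p = 0.7). The order of the leading pair depended on the gene length: with the longest transcript, *Elovl1* (48.3%) exceeded *Elovl5* (44.9%) in AdLacZ, though the direction of each difference between the groups stayed.

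*Elovl6* and *Scd3* were called lower in AdLmo3, and the 250 bases before their RefSeq starts (chr3:129532136-129532385 and chr19:44203038-44203287, plus strand, GRCm38.p6), of which the last 31 and 19 lie inside the GENCODE genes, are printed with the same motifs in capitals:
Elovl6: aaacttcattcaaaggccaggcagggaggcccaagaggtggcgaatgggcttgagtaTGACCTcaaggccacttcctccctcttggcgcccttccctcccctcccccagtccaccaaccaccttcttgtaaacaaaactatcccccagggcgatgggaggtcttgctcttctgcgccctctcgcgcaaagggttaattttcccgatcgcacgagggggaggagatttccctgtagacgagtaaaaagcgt
Scd3: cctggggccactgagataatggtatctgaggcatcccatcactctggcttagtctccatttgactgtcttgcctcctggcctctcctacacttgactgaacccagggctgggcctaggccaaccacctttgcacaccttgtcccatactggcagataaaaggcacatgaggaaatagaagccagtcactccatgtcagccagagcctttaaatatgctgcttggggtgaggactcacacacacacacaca
*Elovl6* held the nuclear receptor motif 193 bases before the RefSeq start and *Scd3* held none of the 5 motifs. The *Elovl5* promoter had an E-box at 161 bases and CCAAT boxes at 71 and 17 bases. A promoter of *Elovl1*, which did not pass the test, also held the nuclear receptor motif, at 95 bases, with GC boxes at 48 and 37 bases. Its other promoter had a CCAAT box at 35 bases and GC boxes at 101, 89, 39, 17 and 8 bases.

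**Figure D3:**
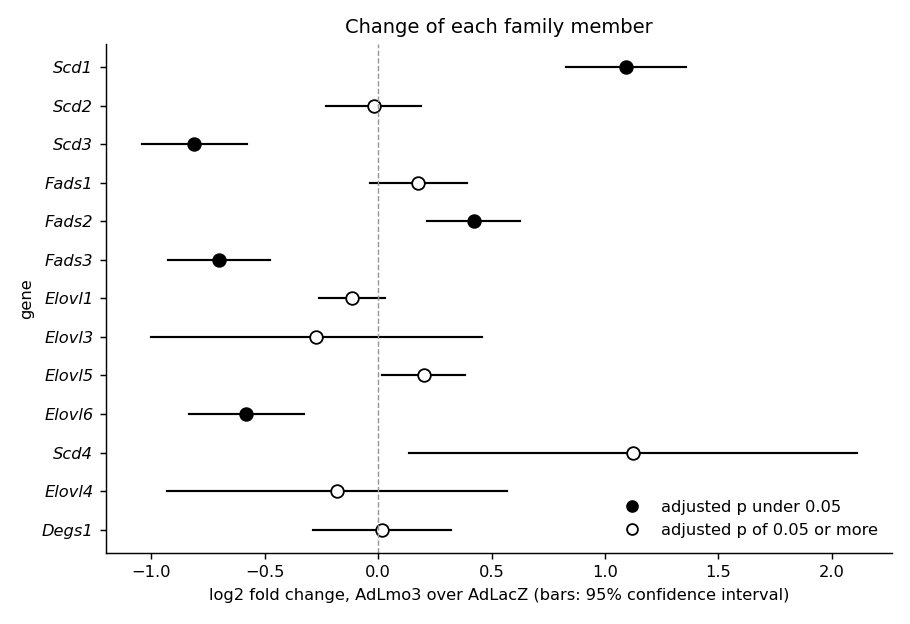
Log2 fold change of AdLmo3 over AdLacZ for the 10 genes and the tested further family members (points), with 95% confidence intervals (bars); filled points passed an adjusted p-value of 0.05. *Scd1* (1.09) and *Fads2* (0.42) lie to the right, *Scd3* (−0.81), *Fads3* (−0.70) and *Elovl6* (−0.58) to the left, and the intervals of *Elovl3* and *Scd4* are wide.

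Levels between genes were compared per kilobase of exon. In AdLacZ the order was *Scd1* (3833 ± 253 normalized counts per kilobase, SD, n = 3), *Scd2* (743 ± 49.9), *Fads3* (145 ± 18.3), *Fads1* (102 ± 4.14), *Fads2* (47.6 ± 2.42), *Elovl5* (31.5 ± 2.05), *Elovl1* (28.4 ± 1.495), *Scd3* (5.00 ± 0.394), *Elovl6* (4.65 ± 0.698) and *Elovl3* (0.715 ± 0.279). *Elovl5* and *Elovl1* overlapped, as did *Scd3* and *Elovl6*, and the other neighbours were apart in all 3 libraries. In AdLmo3 the order was *Scd1* (8173 ± 719), *Scd2* (733 ± 46.0), *Fads1* (115 ± 12.8), *Fads3* (89.2 ± 1.48), *Fads2* (63.7 ± 6.50), *Elovl5* (36.2 ± 2.61), *Elovl1* (26.3 ± 0.927), *Elovl6* (3.11 ± 0.0743), *Scd3* (2.85 ± 0.205) and *Elovl3* (0.592 ± 0.0789), and no neighbours overlapped. *Scd1* stood 5.16 times above *Scd2* in AdLacZ and 11.1 times above it in AdLmo3.

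To compare members that work on linked substrates, the log2 ratio of their counts per kilobase was taken within each library. *Scd1* over *Scd2* was 2.40, 2.38 and 2.32 in AdLacZ and 3.43, 3.42 and 3.58 in AdLmo3, a difference of 1.11. *Elovl6* over *Elovl5* was −2.62, −2.88 and −2.80 in AdLacZ and −3.46, −3.56 and −3.60 in AdLmo3, a difference of −0.77. The gap in both pairs was wider than the spread of either group. *Elovl6* over *Elovl1* differed by −0.46 (−2.62 ± 0.146 against −3.08 ± 0.0186, SD, n = 3), and *Fads1* over *Fads2* by −0.24 (1.09 ± 0.105 against 0.85 ± 0.0372). For all 4 ratios the groups did not overlap, and each gave the smallest p possible (exact permutation p = 0.1, adjusted over 4 ratios 0.1), which cannot pass a threshold of 0.05.

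**Figure D4:**
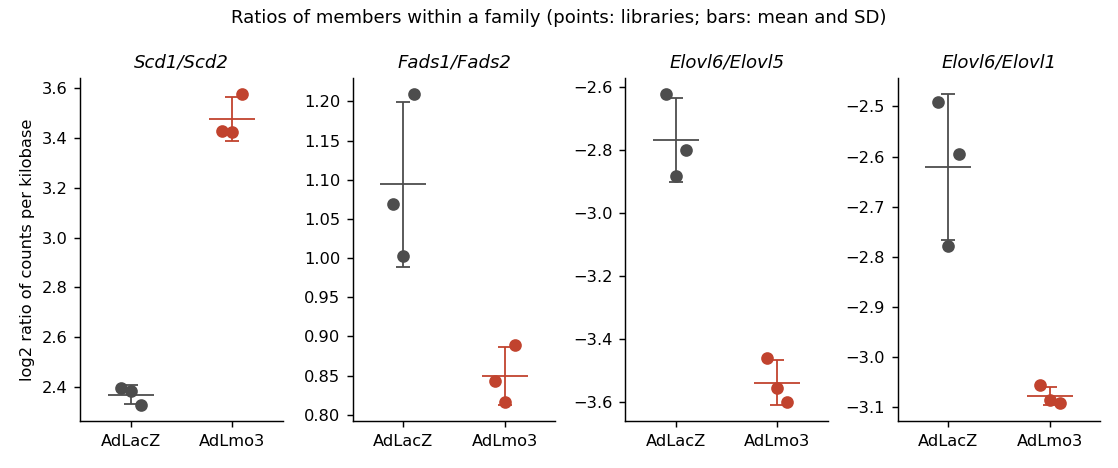
Log2 ratio of counts per kilobase for 4 pairs of genes, 1 panel each with its own vertical axis, in the AdLacZ (grey) and AdLmo3 (red) libraries; points are libraries, and bars give the mean and SD. The groups are apart in every panel, by 1.11 for *Scd1* over *Scd2* and by −0.77 for *Elovl6* over *Elovl5*.

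Beside *Scd4*, the further members of these families were faint or did not pass the test. *Elovl4*, the elongase of ultra-long chains in retina and skin, had 9 to 28 counts per library (log2 difference −0.18, adjusted p = 0.807). *Degs1*, the desaturase that completes ceramide, was well expressed at 232, 161 and 206 CPM in AdLacZ and 200, 184 and 222 CPM in AdLmo3 (log2 difference 0.02, 95% confidence interval −0.29 to 0.32, adjusted p = 0.966). *Fads6*, *Elovl2*, *Elovl7* and *Degs2* had 0 to 9 counts in a library and were not tested.

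Desaturases take electrons from cytochrome b5 and its reductases. Of 6 such genes tested, 1 was called higher and 1 lower (2.71% and 1.57% of all genes tested were). In sign alone 3 estimates were above 0 and 3 below, where 6437 of all 12766 were above 0. The median log2 fold change was 0.00, the same as over all genes. *Por*, the cytochrome P450 oxidoreductase, rose from 251, 241 and 232 CPM to 324, 301 and 306 CPM (log2 fold change 0.36, SE 0.0670, adjusted p = 0.0253). *Cyb5r1*, a cytochrome b5 reductase, fell from 294, 325 and 322 CPM to 220, 210 and 183 CPM (−0.62, SE 0.0863, adjusted p = 0.0103). The most abundant of them, *Cyb5b*, a cytochrome b5 of the outer mitochondrial membrane, stood at 683 to 791 CPM and 692 to 792 CPM (log2 difference 0.00, adjusted p = 0.993).

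The elongation cycle needs a reductase, a dehydratase and a further reductase after the ELOVL step. Of 7 genes for these steps 6 were tested, and 2 were called higher and 0 lower, against 2.71% and 1.57% of all genes tested. In sign alone 5 estimates were above 0 and 1 below, with a median log2 fold change of 0.29. *Hacd2*, a dehydratase of the cycle, rose from 95.8, 91.9 and 104 CPM to 123, 121 and 141 CPM (log2 fold change 0.40, SE 0.0826, adjusted p = 0.0356), and its scarcer relative *Hacd4* rose from 2.46 to 3.04 CPM in AdLacZ to 4.40 to 5.78 CPM in AdLmo3 (0.81, SE 0.171, adjusted p = 0.0407). *Hsd17b12*, the ketoacyl reductase and most abundant of the list, had non-overlapping levels of 314, 268 and 295 CPM and of 367, 368 and 441 CPM, with an adjusted p of 0.0533 (log2 difference 0.43).

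Genes that supply malonyl-CoA and palmitate held the largest rises among the 6 lists of partners. Of 9 tested, 3 were called higher and 0 lower, against 2.71% and 1.57% of all genes tested. In sign alone 8 estimates were above 0 and 1 below, with a median log2 fold change of 0.43. *Thrsp*, a lipogenic nuclear and cytosolic factor also called Spot 14, rose from 66.8, 60.9 and 51.9 CPM to 195, 199 and 175 CPM (1.66, SE 0.103, adjusted p = 0.00110). *Fasn*, which synthesizes palmitate, rose from 1428, 1359 and 1296 CPM to 2454, 3007 and 3755 CPM (1.17, SE 0.147, adjusted p = 0.00686). Its libraries differed more in AdLmo3 than in AdLacZ, but all AdLmo3 libraries lay above all controls. *Acss2*, which makes acetyl-CoA from acetate, rose from 136, 132 and 116 CPM to 165, 208 and 233 CPM (0.66, SE 0.127, adjusted p = 0.0287; called in 1 of 6 fits that left out a library). *Fasn* thus rose along with *Scd1*, whereas *Elovl6*, which acts on the product of fatty acid synthase, fell.

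Among acyl-CoA ligases and the acyl-CoA binding protein, 5 of 6 genes were tested. Of these 2 were called higher and 1 lower, against 2.71% and 1.57% of all genes tested. In sign alone 3 estimates were above 0 and 2 below (median 0.09). *Acsl1*, the main long-chain ligase of adipocytes, rose from 2732, 2421 and 2660 CPM to 3767, 3864 and 3958 CPM (0.57, SE 0.0822, adjusted p = 0.0115), and *Dbi*, the binding protein, rose from 460, 387 and 398 CPM to 564, 573 and 609 CPM (0.49, SE 0.0850, adjusted p = 0.0202). *Acsl4*, a ligase that prefers arachidonic acid, fell from 162, 176 and 185 CPM to 130, 122 and 127 CPM (−0.46, SE 0.0726, adjusted p = 0.0145). Of 12 genes for very long chain and polyunsaturated acyl groups, 0 were called higher and 1 lower, against the same shares of all genes. In sign alone 7 estimates were above 0 and 5 below (median 0.04). *Acot2*, a mitochondrial acyl-CoA thioesterase, fell from 103, 101 and 108 CPM to 70.1, 59.0 and 52.6 CPM (−0.78, SE 0.102, adjusted p = 0.00780).

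Of 16 transcriptional regulators of these genes, 3 were called higher and 0 lower, against 2.71% and 1.57% of all genes tested. In sign alone 12 estimates were above 0 and 4 below, with a median log2 fold change of 0.22. *Cebpa*, a driver of adipocyte differentiation, rose from 232, 207 and 230 CPM to 308, 360 and 337 CPM (0.59, SE 0.0835, adjusted p = 0.0111). *Pparg*, the nuclear receptor that binds thiazolidinediones, rose from 377, 367 and 422 CPM to 493, 534 and 604 CPM (0.48, SE 0.0955, adjusted p = 0.0316), and *Nr1h3*, which encodes the oxysterol receptor LXRα, rose from 104, 88.6 and 100 CPM to 125, 121 and 136 CPM (0.39, SE 0.0811, adjusted p = 0.0405). *Insig1*, which retains SREBP proteins in the endoplasmic reticulum and is the most abundant of the list, stood at 455 ± 42.8 and 602 ± 84.2 CPM (0.40, adjusted p = 0.1005). *Srebf1*, which encodes SREBP-1 and was singled out after its values were seen, stood at 190, 188 and 210 CPM and at 184, 226 and 268 CPM, and the groups overlapped (log2 difference 0.21, 95% confidence interval −0.09 to 0.50, adjusted p = 0.414).

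Over these 6 lists and the further family members, 57 of 63 genes were tested and 14 were called, 11 higher and 3 lower, where 4.28% of all genes tested were called, 2.71% higher and 1.57% lower. Fewer of the 57 were called when a library was left out, which also makes its group smaller. The number called was 8, 6 and 1 without AdLacZ replicates 1, 2 and 3, and 13, 4 and 7 without AdLmo3 replicates 1, 2 and 3. Over all genes tested the number fell from 547 to between 77 and 501 in these fits. The cause of the lost calls was not tested. *Thrsp* was called in all 6 of these fits, *Fasn*, *Cebpa* and *Acot2* in all but that without AdLacZ replicate 3 (adjusted p 0.0558, 0.0601 and 0.0558), *Cyb5r1* and *Acsl1* in 4, *Acsl4* in 3, *Dbi* in 2, *Acss2*, *Hacd2* and *Pparg* in 1, and *Por*, *Hacd4* and *Nr1h3* in 0 of the 6.

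**Figure D5:**
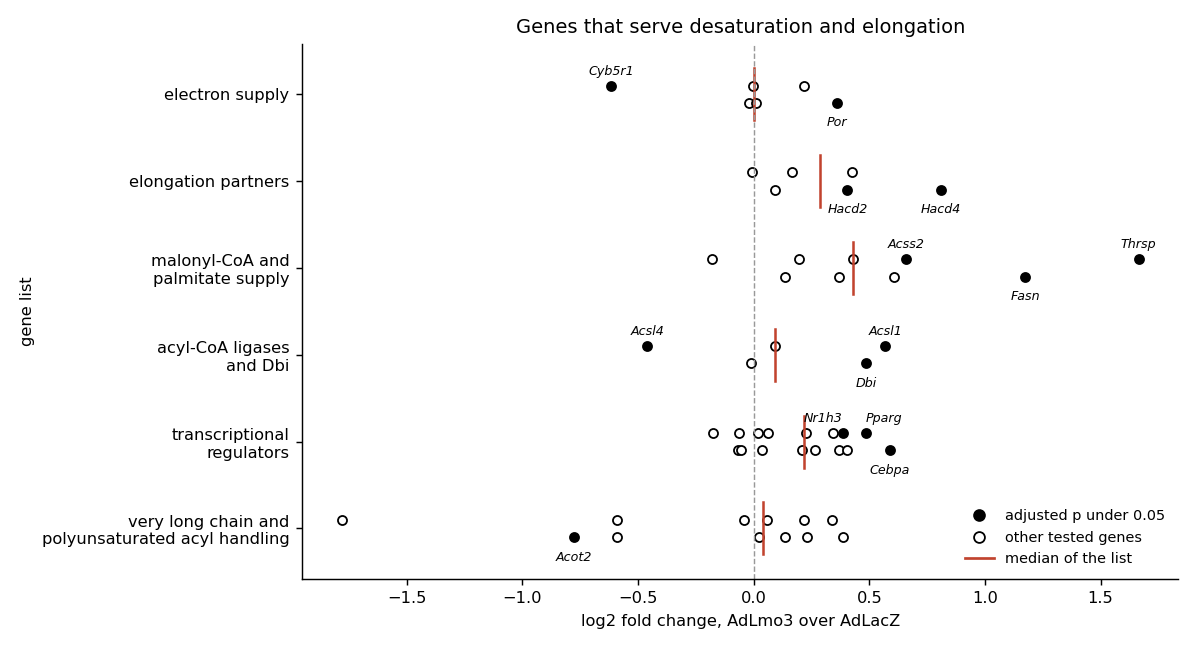
Log2 fold change of AdLmo3 over AdLacZ for the tested genes of 6 lists (1 point per gene; filled and named, adjusted p under 0.05; red line, median of the list). The supply of malonyl-CoA and palmitate lies furthest to the right (median 0.43, *Thrsp* at 1.66), and electron supply is centred at 0.00 with *Cyb5r1* at −0.62.

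The genes with the most similar profile were found by the root mean square difference of log2 CPM, centred on each gene's mean, over the 6 libraries and among all genes tested. For *Scd1* they were *Atp2b4*, a calcium pump of the plasma membrane (0.0755), *B3galt2*, a galactosyltransferase (0.0823), and *Siglec1*, a sialic acid-binding lectin (0.0895). Their log2 fold changes were 1.00, 1.12 and 1.06, and all 3 passed the test (adjusted p 0.00352, 0.00352 and 0.00427). For *Scd2* they were *Mllt11* (0.0205), *Zc3h4* (0.0246) and *Jarid2*, a Polycomb cofactor (0.0260), none of which passed the test. For *Elovl6* they were the noncoding transcripts *Mir99ahg* (0.0578) and *Snhg4* (0.0673) and the predicted gene *Gm13247* (0.0785), with log2 differences of −0.50, −0.57 and −0.53 that did not pass the test. The nearest genes of *Scd1* were expressed far below it, at means of 23.6 to 44.0 CPM in AdLacZ. This measure includes the difference between the groups. With deviations within groups in its place, none of the nearest genes of *Scd1*, *Scd2* or *Elovl6* stayed.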

How the data were processed

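RNA-Seq was done on 6 libraries of infected 3T3-L1 adipocytes (3 AdLacZ, 3 AdLmo3), grouped by their labels. The authors sequenced single reads of 75 bp, mapped them with STAR 2.5.0b to mm10 (GRCm38), and deposited raw counts of reads per gene symbol for each library. Their own tests used DESeq2 1.6.3, per the labels. The counting program, annotation and strand setting are not given in the sources used here. A further 7.62% to 9.47% of reads, assigned to no gene or to several, were left out.

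Differences were tested by the quasi-likelihood method of edgeR 4.0.16 in R 4.3.3, after filterByExpr and TMM, without a replicate block and with Benjamini-Hochberg adjustment over 12766 genes (threshold 0.05). CPM are TMM-normalized, and confidence intervals are 95%. Lengths, positions, 75-base stretches and coding sequences came from GENCODE on GRCm38, and coding sequences were aligned with Biopython 1.88. Shares, ratios and family totals were compared by two-sided exact permutation tests (scipy 1.17.1). No 2 replicates were alike within sampling noise (chi-square per degree of freedom 22.9 to 61.6). Alternatives were DESeq2 1.42.0, limma voom 3.58.1, other scalings and count filters, the replicate block, and leaving out each library. For shares, other gene lengths, and for ratios 1 added count, were tried. The fit was checked on simulated counts with 200 changed genes. Plots were made in matplotlib 3.10.9. The genes and lists were chosen with earlier results of these data known. Named were all family members, the called genes of each list (up to 4) with its most abundant gene (1 of these is not reported here), the 3 nearest profiles of *Scd1*, *Scd2* and *Elovl6*, and genes sharing sequence or exons with a member. Counting floors cover counting error only.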

Additional observations from a re-analysis of the deposited data

How the results depend on the processing

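The number of genes called was 547; it was 1110 with DESeq2 and 77 (without AdLacZ replicate 3) to 501 on leaving out 1 library. Lower calls numbered 201, and 501 with library totals as the only scaling, where higher calls went from 346 to 266; that scaling moved the median log2 fold change over all genes to −0.07. Over the 10 members and 7 settings other than leaving out a library, 68 of 70 results kept their direction and side of the threshold; *Fads2* lost its call with library totals only (log2 fold change 0.35, adjusted p = 0.0563) and with the replicate block (0.42, adjusted p = 0.0646). *Scd1* (1.02 to 1.17) and *Scd3* (−0.89 to −0.75) were called under all 13 alternatives. Leaving out 1 library gave 2 to 4 called members in place of 5 and 1 to 13 called genes of the pathway lists in place of 14. Differences near 0 turned in sign when 1 library was left out: *Scd2* ranged from −0.069 to 0.032 on the log2 scale (above 0 without AdLacZ replicate 2 or AdLmo3 replicate 1), *Elovl3* from −0.54 to 0.017, and the share of *Elovl3* from −0.437 to 0.0366 percentage points (both above 0 without AdLacZ replicate 2). Of the further family members, the share of *Scd4* ranged from −0.000453 to 0.00146 (below 0 without AdLacZ replicate 2 or AdLmo3 replicate 1) and that of *Elovl4* from −0.101 to 0.0193 percentage points (above 0 without AdLmo3 replicate 3). The other shares and the 4 ratios kept their direction under the alternatives run. With deviations within groups as the measure, 0 of the 3 nearest profiles of *Scd1*, *Scd2* and *Elovl6* stayed. Same-numbered libraries deviated together in part (correlations 0.0345, 0.176 and 0.176, mean 0.129 against −0.0643 for other pairs). Deviations from a group mean cancel within the group, so the mean for other pairs is nearly fixed by that for same-numbered pairs. It is therefore no separate comparison. Of the 6 libraries, 4 were closest to their own number. Whether a number marks a shared day or batch was not tested. With the number as a block 498 genes were called, among them 4 members and 13 genes of the lists. *Hacd4* (adjusted p = 0.0749) and *Acss2* (adjusted p = 0.0537) were no longer called. *Slc25a1*, named after its values were seen, was called under the block (adjusted p = 0.0456). Where calls were lost the cause was not tested. Counts of 28 to 75 limit what can be said of *Elovl3*.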
